A study of Rattus norvegicus with 5 samples.

Results

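Aminoacyl-tRNA synthetases are the enzymes that join each amino acid to its transfer RNA, and 35 rat genes that encode them were followed here: 19 for the cytosol and 16 for mitochondria. The members are a list of the family by gene name, and the rule uses no measured value. A probe could be matched to 31 of the 35 genes, of 15167 genes named on the array. The cytosolic Gars1 and the mitochondrial Iars2, Lars2 and Mars2 had no matched probe and are not analysed here. The 31 measured genes, 18 cytosolic and 13 mitochondrial, had 40 probes, and 30 of them were well above background on all 5 arrays.

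The samples were BRL-3A cells, an established line from Buffalo rat liver that the labels call normal rat hepatocytes, read with one-colour Agilent arrays. Tmub1 encodes a ubiquitin-like membrane protein, and the study is about its part in transcription in liver cells. There were 5 groups with 1 array each: a lentivirus labelled Tmub1 overexpression, a lentivirus for Tmub1 knockdown, a negative control virus for each, and normal cells without virus. All groups share the cell line and the medium, the transduced cells were taken 48 h after transduction, and labelled cRNA was made from 1 µg of RNA. Nothing in the labels says what the control viruses carried or how the knockdown sequence was chosen.

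Each synthetase takes 1 amino acid, apart from Eprs1, which carries glutamyl and prolyl activities in a single chain, and Farsa and Farsb, which are both needed for the cytosolic phenylalanine enzyme. In the cytosol several synthetases sit together in the multi-synthetase complex, while the others work free of it. Kars1 and Gars1 serve both compartments, and most other mitochondrial enzymes come from separate nuclear genes. Many cytosolic synthetase genes are known targets of Atf4, the transcription factor of the amino acid response, and Wars1 is a known interferon-induced gene.

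Levels are log2 processed signals minus the 75th percentile of the same array, so a level of 0 lies at that percentile. They can be compared between arrays for a given probe, but not between genes. A gene was called higher or lower at 2.5-fold, which is the size of change that the design text sets, with the brighter value well above background. With 1 array per group there was no replicate check, no p-value is given, and every call describes a pair of arrays. The intervals given are 95% intervals from the scanner software's error, which covers the reading of the spots alone.

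Each array gave 42877 non-control spots, none saturated, with 66.9% to 86.5% of probes well above background. The median signal was 356.2 on the knockdown array and 329.4 in normal cells, against 116.4 to 159.7 on the other 3 arrays. Tmub1 was 3.65-fold lower with knockdown than in its negative control, but only 1.05-fold higher with the overexpression virus. Whether the Tmub1 probe reads the transcript of the virus is not known, so that array is named by its label throughout. Of 12 hepatocyte markers, 7 to 9 were well above background on each array, with a summed log2 level between 0.51 and 1.74, and Cps1 and Tat were below background on all 5. Alb was below background on 3 arrays. All 9 stellate cell and fibroblast markers were above background on every array, with a summed level between 8.03 and 9.12, a sum over other probes that cannot be set against that of the hepatocyte list.

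The synthetase promoters are shown first because several share a run of letters that the Atf4 pathway is known for. The amino acid response element was searched as TGATGNAA on both strands, from 250 bases before to 50 bases after each annotated start, in the RefSeq promoters of assembly GRCr8. It was present in 3.98% of 33469 promoters. Among the synthetases with an entry it was in 7 of 17 cytosolic promoters, those of Aars1, Cars1, Iars1, Mars1, Nars1, Tars1 and Yars1, and in 0 of 16 mitochondrial ones. Rars1 and Gars1 had no entry. One stretch is shown for each of 6 of these genes (none for Nars1, and the match of Aars1 upstream of its start), 5′ to 3′ on the gene's strand, with the matched letters in capitals (on the opposite strand the element begins with TT). They lie at chr19:55908344-55908403 (Aars1, plus strand), chr17:15193653-15193712 (Iars1, minus), chr7:65023754-65023813 (Mars1, minus), chr2:62114803-62114862 (Tars1, minus), chr1:208225334-208225363 (Cars1, minus) and chr5:146820183-146820212 (Yars1, plus).
Aars1: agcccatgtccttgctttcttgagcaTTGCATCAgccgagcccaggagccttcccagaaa
Iars1: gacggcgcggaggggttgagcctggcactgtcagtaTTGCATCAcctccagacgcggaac
Mars1: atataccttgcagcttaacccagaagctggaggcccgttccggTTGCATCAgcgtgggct
Tars1: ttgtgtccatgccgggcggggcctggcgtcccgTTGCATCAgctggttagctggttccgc
Cars1: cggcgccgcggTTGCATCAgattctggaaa
Yars1: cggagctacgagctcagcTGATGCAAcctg

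In 6 of these 7 promoters every match lay within 50 bases of the start. The match ended 10 bases before the start in Mars1, 17 in Iars1 and 20 in Tars1, and it began 17 bases after the first base in Cars1. Aars1 had a match from 112 bases before the start and another 9 bases after it. The E-box CACGTG, which reads the same on both strands, was in 6.42% of all promoters, in 5 of the 17 cytosolic ones (Aars1, Farsb, Iars1, Tars1 and Vars1) and in 1 of the 16 mitochondrial ones (Ears2). A match is a description of letters, and no match says only that these letters are not in the window.

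**Figure D1:**
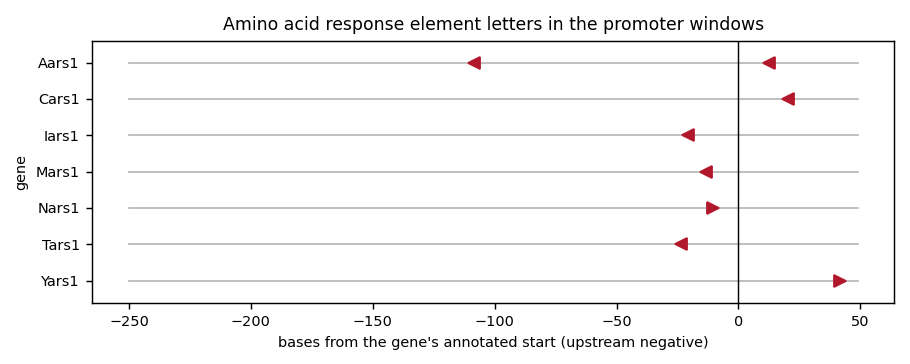
Position of the letters TGATGNAA in the 7 synthetase promoters that hold them, in bases from the annotated start (0, black line). Grey lines show the window searched, right-pointing triangles matches on the gene's strand and left-pointing triangles matches on the opposite strand; only the Aars1 match at -112 lies far from the start.

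With Tmub1 knockdown, 6 of the 31 synthetases were at least 2.5-fold higher than in the knockdown negative control and 1 was lower. Of all 12761 genes that could be called, 18.5% were past this fold, 8.46% higher and 10.1% lower, and of the synthetases 7 of 31 were. The synthetases that were higher were the cytosolic Hars1, Sars1, Lars1 and Mars1 and the mitochondrial Fars2 and Nars2, and the one that was lower was the mitochondrial Cars2. The 18 cytosolic genes had a median log2 difference of 0.26 and the 13 mitochondrial genes one of 0.07, against -0.18 over all genes. The total share past the fold is near that of all genes, so the count of calls does not set the family apart. Scaling moved the split of all calls: 45.7% were higher as scaled here, 56.6% after cyclic loess, 34.0% after normexp and 71.1% with the percentile taken over probes above background on all arrays, with all-gene medians of -0.04, -0.46 and 0.13. The cytosolic median stayed above 0 under these scalings, and the mitochondrial one was -0.04 after quantile normalization and after normexp.

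**Figure D2:**
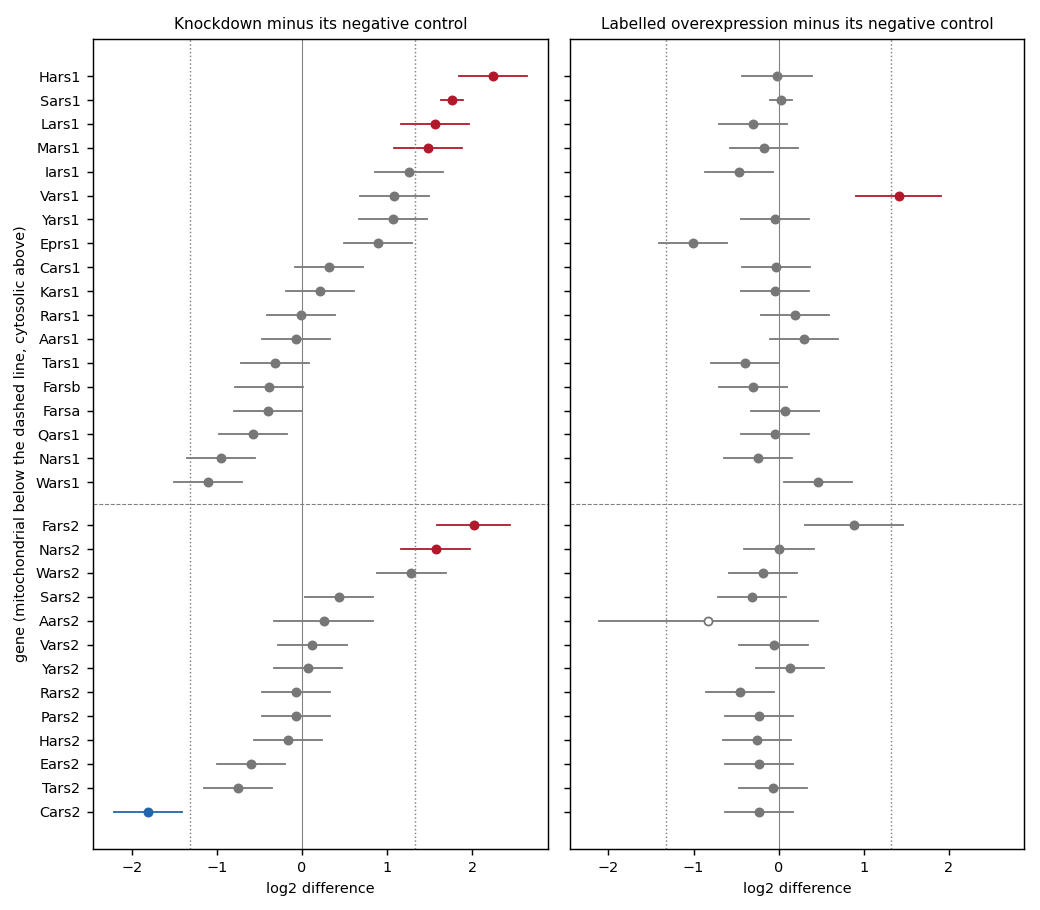
Log2 difference of each synthetase between the knockdown array (left) or the array labelled overexpression (right) and its own negative control, with 95% intervals from scanner error. Dotted lines mark 2.5-fold, red and blue points are calls, the open point was below background on both arrays, and the x axes are the same. The knockdown differences run from -1.81 (Cars2) to 2.24 (Hars1), while only Vars1 is past the fold on the right.

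Hars1, the cytosolic histidine enzyme, had a level of 0.44 with knockdown, against -1.80 in the knockdown negative control, -1.97 in the other negative control, -1.99 on the array labelled overexpression and -1.43 in normal cells. The knockdown array thus stood above all the others, which lay within a narrow band. Hars1 was 4.74-fold higher than in the knockdown negative control, a log2 difference of 2.24 (1.84 to 2.65). Its mitochondrial counterpart Hars2 had levels of 0.37 with knockdown and 0.53 in the knockdown negative control, a difference of -0.16, and 1.59, 1.34 and -0.06 on the overexpression negative control, the array labelled overexpression and normal cells. The 2 histidine genes are neighbours on opposite strands. Their annotated starts lie 144 bases apart, and their promoter windows share 243 bases, yet the knockdown array was the highest of 5 for Hars1 and not for Hars2.

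Sars1, the cytosolic serine enzyme, is the only synthetase whose probe is spotted several times, with 10 spots per array, so its interval is the narrowest. Its level was 2.54 with knockdown, against 0.78 in the knockdown negative control, 0.47 in the overexpression negative control, 0.50 on the array labelled overexpression and -0.20 in normal cells. Again the knockdown array was above the rest. The difference from the knockdown negative control was 1.76 (1.63 to 1.89), or 3.39-fold. The mitochondrial Sars2 had levels of 0.34 with knockdown, -0.10 in its negative control, 0.95 in the other, 0.64 on the array labelled overexpression and 0.62 in normal cells. Its knockdown array lay inside the range of the others, and the difference of 0.43 was not past the fold.

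Lars1 and Mars1, the leucine and methionine enzymes, belong to the multi-synthetase complex. For Lars1 the level was 2.30 with knockdown, 0.73 in its negative control, 0.92 in the other negative control, 0.62 on the array labelled overexpression and -0.14 in normal cells. Mars1 gave 2.93 with knockdown, 1.45 in its negative control, 2.15 in the other, 1.98 on the array labelled overexpression and 0.84 in normal cells. Both were highest with knockdown and lowest in normal cells. Lars1 was 2.96-fold and Mars1 2.79-fold higher than in the knockdown negative control, and Mars1 was the called member nearest to the threshold. Just outside it lay Wars2 at 2.44-fold.

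The 7 measured members of the complex (Eprs1, Iars1, Kars1, Lars1, Mars1, Qars1 and Rars1) had a median difference of 0.90, and 5 of them were above 0. Iars1, the isoleucine enzyme, had a difference of 1.26, and Eprs1 one of 0.90. Kars1 (0.21), Rars1 (-0.02) and Qars1 (-0.57) lay lower, so 2 of the 7 were past the fold, beside 18.5% of all genes. The 11 free cytosolic enzymes had a median of -0.07, with Hars1 and Sars1 the called ones. Yars1 and Vars1, for tyrosine and valine, reached 1.07 and 1.09 without passing 2.5-fold. Wars1 (-1.10) and Nars1 (-0.95) had the lowest values among the free enzymes. A second probe of each, and of the free Tars1 (-0.31), had the opposite sign, at 1.08, 1.92 and 1.98 in turn. A second probe of Kars1, in the complex, gave 1.52. The median of the free enzymes and its gap from that of the complex therefore depend on the probes read, as given further on.

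Of the 13 mitochondrial genes, 3 were past the fold, beside 18.5% of all genes, so this count does not set them apart. Fars2, the mitochondrial phenylalanine enzyme, had a level of -1.62 with knockdown, against -3.63 in its negative control, -4.36 in the other, -3.47 on the array labelled overexpression and -3.88 in normal cells. Nars2, for asparagine, had a level of -1.23 with knockdown, against -2.80 in its negative control, -2.61 in the other, -2.60 on the array labelled overexpression and -2.74 in normal cells. Both stood apart on the knockdown array alone, at 4.04-fold (Fars2) and 2.98-fold (Nars2) above its negative control. After normexp background correction neither passed 2.5-fold, with differences of 1.10 for Fars2 and 1.05 for Nars2.

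Cars2, the mitochondrial cysteine enzyme, was the only synthetase lower by 2.5-fold. Its level was -1.95 with knockdown, against -0.14 in its negative control, 0.36 in the other negative control, 0.13 on the array labelled overexpression and 0.00 in normal cells. The 4 other arrays lay close together and the knockdown array well below them. The difference was -1.81 (-2.21 to -1.41), or 3.51-fold lower. The cytosolic Cars1 had levels of 1.29 with knockdown, 0.97 and 1.38 in the knockdown and overexpression negative controls, 1.35 on the array labelled overexpression and 0.70 in normal cells, and its difference of 0.32 was within the fold. The remaining mitochondrial genes lay between -0.75 (Tars2) and 1.28 (Wars2).

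**Figure D3:**
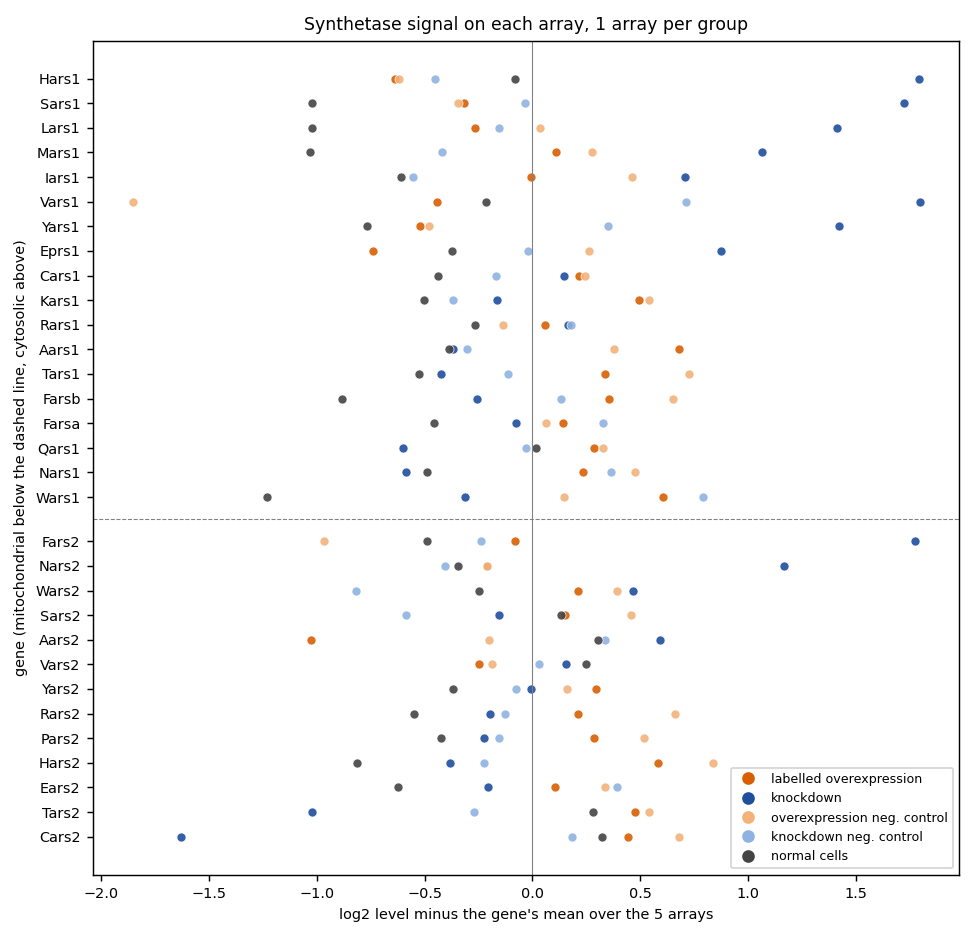
Level of each of the 31 measured synthetases on each array, as log2 signal minus the gene's mean over the 5 arrays (x axis), with cytosolic genes above the dashed line and mitochondrial genes below, each set ordered by its knockdown difference. Dark blue points (knockdown) stand to the right of the other 4 arrays for the called Hars1, Sars1, Lars1, Mars1, Fars2 and Nars2, and to the left for Cars2. They also stand to the right for Eprs1, Iars1, Vars1, Yars1, Aars2 and Wars2, and to the left for Nars1, Qars1 and Tars2, none of them called.

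By amino acid, 12 cytosolic and mitochondrial pairings (Farsa and Farsb each paired with Fars2) were compared by their knockdown differences, not by their levels. The cytosolic gene had the higher knockdown difference in 7, with a median gap of 0.24. The pairings did not all run one way. The difference of Hars1 was above that of Hars2 by 2.41, and that of Cars1 above that of Cars2 by 2.13. The difference of Nars1 lay below that of Nars2 by a log2 gap of -2.53. Those of Farsa and Farsb lay below that of Fars2 by gaps of -2.42 and -2.40. The Nars1 gap depends on the probe: with the dimmer probe of each gene that has one, it turns to 0.35. The cytosolic gene then has the higher difference in 8 of the 12 pairings, and the median gap is 0.66. Nars1 had levels of 2.44 with knockdown, 3.39 and 3.50 in the knockdown and overexpression negative controls, 3.26 on the array labelled overexpression and 2.54 in normal cells. Farsa, one chain of the cytosolic phenylalanine enzyme, had 2.28 with knockdown, 2.68 and 2.42 in the same controls, 2.50 with the label overexpression and 1.90 in normal cells. Farsb, the other chain, had 3.81, 4.19, 4.72, 4.42 and 3.18 on these arrays in the same order, so both chains were lowest in normal cells.

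The knockdown array can also be set against the other control arrays, and these comparisons share it, so they do not stand for independent support. Against the overexpression negative control, where 28.9% of all genes were past the fold (13.2% higher and 15.7% lower), 7 synthetases were higher and 2 lower. Hars1 was 5.32-fold, Sars1 4.21-fold, Lars1 2.59-fold, Fars2 6.71-fold and Nars2 2.60-fold higher, and Cars2 4.96-fold lower, while Mars1 reached only 1.72-fold. Vars1 and Yars1 joined the higher genes, at 12.6-fold and a log2 difference of 1.90, and Tars2 the lower ones, at -1.56. Against normal cells Hars1 was 3.67-fold, Sars1 6.72-fold, Lars1 5.40-fold, Mars1 4.27-fold, Fars2 4.81-fold and Nars2 2.86-fold higher, and Cars2 3.87-fold lower.

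On the array labelled overexpression, 1 of 30 synthetases that could be called was past the fold, as were 2.71% of all 11833 genes (1.71% higher and 1.01% lower). Of all these calls 62.9% were higher, against 49.4% after normexp and 51.4% in the authors' deposited table. That gene was Vars1, the cytosolic valine enzyme, with levels of -2.90 on this array, -4.31 in the overexpression negative control, -0.66 with knockdown, -1.74 in the knockdown negative control and -2.67 in normal cells. The value that stood apart was that of the overexpression negative control, the lowest of the 5. Vars1 was 2.66-fold higher than in that control, but the difference was -1.15 against the knockdown negative control and -0.23 against normal cells. The mitochondrial Vars2 had -2.03 on the array labelled overexpression, -1.97 in its negative control, -1.63 with knockdown, -1.75 in the knockdown negative control and -1.53 in normal cells, a narrower range. Next to the threshold came Eprs1, 2.00-fold lower, with levels of 1.75 on this array, 2.76 in its own control virus, 2.47 in the other, 3.37 with knockdown and 2.12 in normal cells.

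The cytosolic median on the array labelled overexpression was -0.04 and the mitochondrial one -0.23, against 0.01 over all genes. Against the knockdown negative control, none of the synthetases was past the fold, where 4.08% of all genes were (1.92% higher and 2.16% lower). The 2 negative controls differed from each other at 8.54% of all genes (5.18% higher and 3.36% lower in the knockdown negative control), and among the synthetases at Vars1 alone, which was 2.57 higher on the log2 scale in the knockdown negative control. The cytosolic genes had a median of -0.24 and the mitochondrial genes one of -0.50 in that comparison of controls. For the mitochondrial genes that gap between controls was larger in size than the median difference of either virus from its own control.

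Against normal cells, most cytosolic synthetases were above 0 on each of the 4 transduced arrays: 16 of 18 with knockdown, 16 in either negative control, and 15 on the array labelled overexpression. The medians of the 18 genes were 0.77, 0.53 (knockdown negative control), 0.72 (overexpression negative control) and 0.68 in turn. Mitochondrial medians were 0.36, 0.03, 0.36 and 0.41. Over all genes the medians were -0.38, -0.14, -0.22 and -0.17. These 4 comparisons share the normal array, which alone was scanned on another day, so scan day and the absence of virus cannot be told apart. Some leukocyte markers moved with the same contrast. Of 5 measured, 3 were above background in normal cells and 4 on each transduced array. Their summed level was -1.11 in normal cells and 1.26 to 1.84 on the others. Cd74 had a level of -6.09 in normal cells and 1.01 to 1.61 on the transduced arrays, and Ptprc was below background in normal cells alone. Clec4f went the other way, at -1.97 in normal cells and -3.36 to -3.27 on the transduced arrays. Adgre1 had -2.41 against -2.56 to -1.78, and Cd3e was below background on all 5 arrays. Of 4 measured endothelial markers, 3 were above background in normal cells, without Pecam1, and 4 on the other arrays. Kdr had 1.64 in normal cells against -0.28 to 1.74, Cdh5 -1.62 against -2.15 to -1.39, and Tek -3.44 against -4.23 to -2.54. Of the 9 stellate cell and fibroblast markers, Lum had -5.94 in normal cells against -1.79 to -0.91 on the other arrays. Pdgfrb had -0.81 against -0.41 to 1.66, and Thy1 -5.68 against -5.37 to -4.66. Normal cells lay inside the range of the other arrays for Col1a1, Col3a1, Acta2, Des and Vim. Col1a2 was highest in normal cells, at 5.81 against 4.24 to 5.76. The hepatocyte marker Tf had -3.76 in normal cells against -0.56 to 0.52, while Apob, Serpina1, Hnf4a, Cyp2e1, Ahsg and Fgb were highest in normal cells. Of 4 measured bile duct cell markers, Spp1 had -4.42 against -1.79 to -0.76 and Krt7 -3.88 against -6.01 to -3.71. Krt19 was highest in normal cells, and Epcam was above background in normal cells alone. The part of these markers in the synthetase values was not tested.

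Calls against normal cells were fewer than these shifts. With knockdown 8 synthetases were higher and 1 lower, where 30.5% of all genes were past the fold, 11.2% higher and 19.3% lower. On the array labelled overexpression 2 were higher and 0 lower, beside 16.6% of all genes, 7.23% higher and 9.35% lower. In the knockdown negative control 1 was higher and 0 lower, beside 16.6% of all genes, 7.05% higher and 9.51% lower. In the overexpression negative control 3 were higher and 1 lower, beside 17.4% of all genes, 7.54% higher and 9.86% lower. Wars1, the tryptophan enzyme, was by its brightest probe a call on the 3 transduced arrays other than knockdown. Its level was 2.21 in normal cells, 3.13 with knockdown, 4.23 and 3.59 in the knockdown and overexpression negative controls, and 4.05 on the array labelled overexpression. The second, dimmer Wars1 probe gave another order, highest with knockdown. It had -1.47 in normal cells, 0.74 with knockdown, -0.34 and -1.81 in the same negative controls, and -0.74 on the array labelled overexpression. The Wars1 pattern against normal cells thus depends on the probe read. The median difference from normal cells of 10 interferon-response reporters was 1.45 with knockdown, 3.40 and 1.76 in the negative controls and 4.05 on the array labelled overexpression. The part of that response in the Wars1 values was not tested. The mitochondrial Wars2 followed another order, with -0.95 in normal cells, -0.24 with knockdown, -1.52 and -0.31 in the negative controls and -0.50 on the array labelled overexpression.

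**Figure D4:**
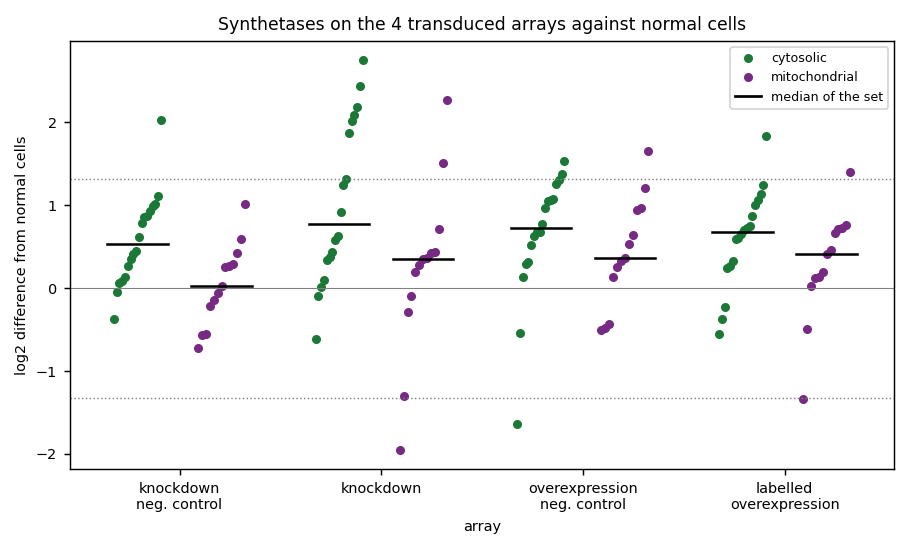
Log2 difference of each measured synthetase from normal cells on the 4 transduced arrays, with cytosolic genes in green, mitochondrial genes in purple, a black bar at the median of each set and dotted lines at 2.5-fold. The cytosolic bars lie between 0.53 and 0.77; the lowest mitochondrial point on the array labelled overexpression is Aars2, which was below background there and is no call.

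Where a gene had more than 1 probe, the probes did not give the same knockdown difference. Each gene above stands for its brightest probe by mean signal, and 8 synthetases had a further probe above background on both arrays. In all 8 the further, dimmer probe gave the higher knockdown difference, with a median of 1.21 against -0.46 for the brighter probes, and in 6 the sign was opposite. For Nars1 the probes gave -0.95 and 1.92, for Tars1, the threonine enzyme, -0.31 and 1.98, and for Wars1 -1.10 and 1.08. For Kars1, the lysine enzyme, they gave 0.21 and 1.52. Read from the dimmer probe, Kars1, Nars1, Tars1 and Wars2 would be past the fold, and the count of synthetases higher with knockdown would be 10 in place of 6. For Wars2 the probes were close, at 1.28 and 1.35.

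This gap between probes was not particular to the synthetases. Of 1787 genes with more than 1 such probe, the dimmer one gave the higher knockdown difference in 77.4%, and in 88.7% of the 997 genes whose probes were over 2 log2 units apart. In the overexpression comparison the shares were 66.7% over all genes and 7 of 7 synthetases. The 7 called synthetases of the knockdown comparison each had 1 probe, so their values could not be set against another. The direction for Nars1, Tars1, Wars1, Pars2, Tars2 and Ears2 depends on the probe read.

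The knockdown difference also ran with signal level. Over all genes above background on both arrays of the comparison, the median difference was -0.07 at mean levels under -2 and -0.77 at levels over 2. Of the genes over 2, 1.38% were called higher and 19.4% lower. Of the 11 synthetases at that level none was called, and their median was -0.31. The 11 synthetases between 0 and 2 had a median of 0.32, against -0.37 over all genes there, and 3 of them were called higher, where 4.80% of all genes were. As a description, Pearson's r between mean level and difference was -0.40 over the 31 synthetases and -0.27 over 11646 genes, points that share the same pair of arrays. The knockdown array was also the brighter of the pair, with the median signals given above, and the part of that in these differences was not tested.

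**Figure D5:**
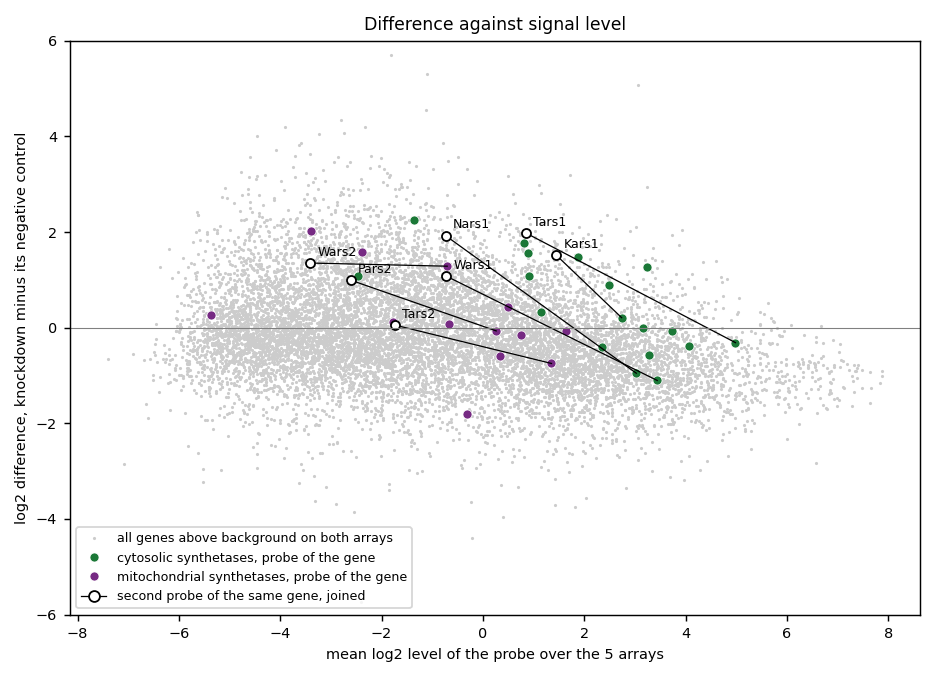
Log2 difference between the knockdown array and its negative control (y axis) against the mean log2 level of the probe over 5 arrays (x axis). Grey points are all genes above background, coloured points the 31 synthetases, and open circles second probes above background on all 5 arrays, joined to the probe of the same gene; each open circle lies above the point it is joined to.

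The promoter letters shown first can be set beside the levels. In the knockdown comparison the 7 cytosolic genes with TGATGNAA had a median difference of 0.32, with 1 called higher (Mars1), and the 10 without it had one of 0.55, with 3 called higher (Hars1, Lars1 and Sars1). These values are those of the brightest probes. Second probes gave 1.92 for Nars1 and 1.98 for Tars1, which hold the letters, and 1.52 for Kars1 and 1.08 for Wars1, which do not. The order of the medians with and without the letters therefore depends on the probes read. By the list of 12 measured synthetases known as Atf4-linked, the median was 0.98 with 3 called, against -0.20 with 1 called for the 6 others. These medians too are those of the brightest probes, with Kars1, Nars1, Tars1 and Wars1 among the genes split. The Atf4 transcript itself had a level of 3.54 with knockdown against 4.27 in its control, a difference of -0.72. Of the 35 measured genes listed for the amino acid response, Atf4 included, 5 were higher and 1 lower with a median of -0.12, a share of 17.1% past the fold beside 18.5% of all genes. Sesn2, a stress-induced sestrin, was 4.34-fold higher and Slc7a5, a leucine transporter, 2.90-fold higher. The others called higher were Slc1a4 at 3.85-fold, Stc2 at 2.88-fold and Vldlr at 2.70-fold. The cystine transporter Slc7a11 was 2.66-fold lower, and Asns, the asparagine synthetase of the same response, differed by 0.18.

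Proteins that work beside the synthetases moved both ways with knockdown. Of 11 measured accessory genes, 3 were higher and 1 lower, where 8.46% of all genes were higher and 10.1% lower. Eef1e1, a scaffold part of the multi-synthetase complex, was 2.66-fold higher, with levels of 1.20 and -0.21 on the knockdown array and its negative control. Aimp1, another scaffold part, was 3.34-fold lower, with 2.24 and 3.98. Of the tRNA 3′-processing nucleases, Elac2 was 2.82-fold higher, and Elac1, below background in the control, at least 3.56-fold higher. None of the 7 genes listed for cytosolic elongation, Eef2k included, was past the fold. None of the 7 listed for the eIF2 pathway, Ppp1r15b included, was either. Of 7 genes listed for mitochondrial translation, Mrrf was 2.52-fold higher and Mtif3 3.65-fold lower.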

How the data were processed

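Gene expression was measured on 5 one-colour Agilent arrays of BRL-3A cells, 1 per group. The deposited scanner files give each spot's processed signal in intensity units, background-subtracted by the scanner software and not scaled between arrays. Per the file headers, the software was Agilent Feature Extraction 11.0.1.1 and the array design used build rn4; the submitters' processing notes name version 9.1. The authors' deposited table of 30423 entries holds log2 values with a median of 6.69 in each column of unstated normalization. The columns correlated with the log2 scanner signals at 0.990 to 0.998.

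Control spots and spots flagged as outliers were left out. The log2 of each spot was taken, replicate spots were averaged and each array's 75th percentile was subtracted. Probes were named by accession through the RefSeq table of GRCr8: 18005 of 30367 probes had 1 gene. Each gene took its values from the probe whose mean over the arrays was highest. A call needed 2.5-fold with the brighter value well above background; a dimmer value below background was set to the lowest well-measured signal of that array if this was higher, giving a bound ("at least"). The p threshold of the design text needs replicates and could not be applied, and the number of arrays limits the precision. Calculations used Python 3.11.15, pandas 2.3.3, R 4.3.3 and limma 3.58.1, and the calling was tested on simulated data.

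The synthetases and all further lists were chosen with earlier results of these data known. By the rule for named genes, all 5 levels are given for synthetases past the fold in either virus's comparison and for the gene of the same amino acid in the other compartment. Wars1, Wars2, Eprs1 and the genes with several probes were added after their values were seen. Amino acid response, accessory, translation and eIF2 lists are given by counts and by genes called in the knockdown comparison. Atf4, Asns, Eef2k and Ppp1r15b are named though not called. Markers and interferon reporters are given by levels, counts, sums or medians. Alternatives were quantile normalization, cyclic loess, normexp (offset 50, on the median pixel signal, since the files hold no mean), the percentile over probes above background on all arrays, the authors' table, averaging the probes of each gene, only genes above background on all arrays, a 2-fold threshold and other reference arrays. Reading the dimmer probe, where a further one was above background on the 4 transduced arrays, was added after the data were seen.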

Additional observations from a re-analysis of the deposited data

How the results depend on the processing

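The 7 synthetases called with knockdown kept their direction under every alternative run. They stayed past 2.5-fold under all but normexp, which lost Fars2 and Nars2, and the other virus's negative control as reference, which lost Mars1. Some alternatives could not lose these calls, because each of the 7 had 1 probe and was above background on all 5 arrays. These were averaging the probes, the dimmer probe, only genes above background on all arrays, and the 2-fold threshold. The count of synthetases higher with knockdown was 6 and became 10 after cyclic loess, with the percentile over probes above background on all arrays, at a 2-fold threshold and with the dimmer probe, an alternative chosen after seeing the data; it was 9 after quantile normalization and in the authors' deposited table, and 4 after normexp. Over all genes the count higher was 1079. It became 1155 after cyclic loess, 1691 with that percentile, 1122 after quantile normalization, 1168 in the authors' deposited table and 485 after normexp. All-gene counts at 2-fold and with the dimmer probe are not given here. The count of synthetases lower was 1 and became 2 at 2-fold and against the other virus's control. The cytosolic median of 0.26 became 0.71 after cyclic loess, 0.70 in the authors' deposited table, 0.85 as the mean of all probes, 0.77 against normal cells and 1.08 with the dimmer probe, and the mitochondrial median of 0.07 became -0.54 against the other negative control. On the array labelled overexpression the count higher was 1; it was 0 after quantile normalization, after normexp, in the authors' deposited table and with the other virus's control, and 2 against normal cells and with the dimmer probe. Over all genes the count higher on that array was 202, and it was 146 after quantile normalization, 38 after normexp and 146 in the authors' deposited table. The count of synthetases lower was 0 and became 1 at 2-fold. There the cytosolic median of -0.04 became 0.68 against normal cells, and the mitochondrial median of -0.23 became 0.34 against the other virus's control and 0.41 against normal cells. The Vars1 difference reversed to -1.15 and -0.23 against the same references. The cause of these moves was not tested. Aars2 was well above background on 3 of the 5 arrays, and no difference can be set against a replicate. No paired analysis was possible because each group had 1 array and no result comes from a test.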

Other observations

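The array with the highest level was not the same for all synthetases. Of the 18 cytosolic genes, 8 were highest with knockdown, 6 in the overexpression negative control, 3 in the knockdown negative control and 1 on the array labelled overexpression. Of the 13 mitochondrial genes, 6 were highest in the overexpression negative control and 4 with knockdown. Normal cells were highest for 1 mitochondrial gene, Vars2, and for no cytosolic one.

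By structural class, the 15 measured class I synthetases had a median knockdown difference of 0.12, with 2 called higher and 1 lower, and the 15 class II synthetases one of -0.07, with 4 called higher, where 8.46% of all genes were higher and 10.1% lower. Against normal cells, the wider amino acid response list of 35 genes had 18 higher and 1 lower on the knockdown array (median 1.67), beside 11.2% and 19.3% of all genes. Its negative control had 20 higher and 1 lower (median 1.51), beside 7.05% and 9.51%. The array labelled overexpression had 9 higher and 2 lower (median 0.79), beside 7.23% and 9.35%, and the overexpression negative control 10 higher and 2 lower (median 0.85), beside 7.54% and 9.86%. Cbs was lower on all 4 arrays. The synthetases linked to Atf4 had medians of 1.28, 0.73, 0.71 and 0.86 on the same arrays in that order, with scan day again confounded.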
